A study of Hydra viridissima with 2 samples.

Results

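Some stretches of the green hydra genome gave capped RNA from a pair of well separated start clusters that each held a large part of the tags. Such loci were collected by a rule on tags pooled over both libraries. Tagged positions of 1 strand formed a cluster when no more than 20 bases separated neighbours, which needed at least 5 pooled tags. Same-strand clusters no more than 1000 bases apart formed a locus. A locus was kept if it had at least 50 pooled tags, held 2 clusters with at least 30% of its tags each and none with 70% or more, and if the most tagged positions of those 2 clusters lay at least 200 bases apart. The rule kept 354 of the 5263 loci with at least 50 pooled tags, or 6.73%, out of 17517 loci of any size. Pooled tags thus chose the loci, and pooled shares, distances and tag numbers are given as descriptions. The difference between the libraries was not used by the rule.

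The tags came from CAGE, which captures the capped 5′ ends of RNA, in whole Hydra viridissima of clone 2. One library was made from aposymbiotic animals, in which the algae are absent, and 1 from green/symbiotic animals, so each group had 1 library and nothing below has a replicate check. The labels give the same culture for both: 24 °C, feeding with brine shrimp, harvest some days after the last meal, and RNA pooled from about 200 large polyps with an RNA integrity number of 10. How the algae had been removed is not given in the sources used here, and both groups are a single clone. The aposymbiotic library held 2138180 tags and the symbiotic library 3926689, 1.84 times as many, so 1 tag was worth 0.468 and 0.255 CPM, the tags scaled to a common library total.

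Green hydra carry algae inside vacuoles of their endodermal epithelial cells, and animals freed of the algae can be kept by feeding. A gene with alternative promoters can make RNAs that differ in their leader, in their first exon or in the start of the protein, and cells can shift output from one promoter to the other without changing the total. In Hydra many RNAs also receive a spliced leader by trans-splicing, which replaces the original 5′ end and brings its own cap. Capped ends can also be mapped within the body of a transcript, so a cluster is not by itself a promoter. Gene models and a genome were not used here: the loci are named by position, no gene or sequence is given, and a locus may hold parts of more than 1 gene.

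The pair of clusters held most but not all of each locus. It accounted for 60.5% to 100% of pooled tags, with a median of 79.0%. The 5′ cluster was the stronger in 178 loci, the 3′ cluster in 162, and both were equal in 14, so neither end led as a rule. The median distance between the top positions was 333 bases, with quartiles of 254 and 514 bases and a maximum of 1993 bases. Between the facing edges of the clusters lay a median of 257.5 bases. The loci had a median of 4 clusters, and 21 consisted of the pair alone. In 167 loci at least 1 weaker cluster lay between the pair, in 213 one lay upstream of it and in 201 downstream. At the edge of the rule, 5 loci had a weaker cluster at exactly 30% and the nearest locus outside stood at 29.96%. The smallest distance inside was 200 bases (2 loci) and the largest outside was 198 bases. There were 6 loci at 50 tags and 3 at 49 tags that met the other conditions.

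Both clusters of the pair were broad. The whole pooled cluster was a median of 74.5 bases wide at the 5′ side and 71.5 bases at the 3′ side, and the top position held a median of 24.4% and 24.5% of the cluster's tags. In each library, width was also taken between the 10th and 90th percentile of the tags, for clusters with 20 tags or more in both. The 171 such 5′ clusters had median widths of 93 (aposymbiotic) and 99 bases (symbiotic), and the 165 3′ clusters had 85 bases in both. Widths of 10 bases or less were rare, with 3 and 4 of the 5′ clusters and 9 and 6 of the 3′ clusters in the aposymbiotic and symbiotic library.

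The loci spanned a wide range of levels. The median locus had 146 pooled tags, the lowest 50 and the highest 99682, and 134 had fewer than 100. The 10 strongest held 60.1% of the tags of all 354. Together the loci took 14.9% of all aposymbiotic and 15.6% of all symbiotic tags. They lay on 22 scaffolds, with 348 on scaffolds 1 to 16, and 187 were on the plus and 167 on the minus strand. The share of the loci with at least 50 tags that met the rule ran from 4.84% to 12.5% across those 16 scaffolds.

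In most loci both clusters had tags in both libraries, which the rule on pooled tags largely sets. The pair had at least 5 tags in each cluster in 326 loci of the aposymbiotic and 353 of the symbiotic library. The cluster lists deposited by the authors, called per library, held both clusters on the same strand for 308 loci in the aposymbiotic and 348 in the symbiotic list. They held only 1 of the pair in 39 and 6 loci, and neither in 7 loci of the aposymbiotic list. One locus had a cluster with no aposymbiotic tag, and it was picked out after its values were seen. On scaffold_13:6662498-6663603 (plus), the 5′ cluster had 0 aposymbiotic and 16 symbiotic tags, and the 3′ cluster had 13 and 16 tags. With 52 pooled tags its 5′ cluster met the rule through its symbiotic tags alone, so no fold is given.

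The comparison of the libraries asked whether the 5′ cluster took a different share of the locus. It was made in the 177 loci that had 50 tags or more in both libraries, and the share is the tags of the 5′ cluster over all tags in clusters of the locus. In the other 177 loci, with 50 to 184 pooled tags, single shares are too uncertain to set side by side. As a reference, the same share was taken in every locus of at least 2 clusters that reached 50 tags in both libraries, 2126 in all, using the 5′ one of its 2 strongest clusters. With 1 library per group no test was possible, and differences were counted by size, a difference of at least 20 percentage points. Intervals for single shares are exact Clopper-Pearson 95% intervals and those for differences are Newcombe's. They reflect sampling of tags alone, and amplified copies of a molecule are not independent. In whole animals fewer cells of a type and less RNA per cell cannot be told apart.

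The division of tags between the clusters was similar in both libraries, as far as 1 library of each can show. Of the 177 loci, 2 had a 5′ share at least 20 points higher in the symbiotic library, against 1.18% of all loci compared, and 0 had one at least 20 points lower, against 0.235%. At 10 points the counts were 22 higher, or 12.4% against 11.3%, and 6 lower, or 3.39% against 4.19%. Without regard to depth, large differences were thus about as frequent here as elsewhere, but this did not hold in the deepest loci. From 2000 pooled tags, 5 of 40 (12.5%) were at least 10 points higher, against 2 of 197 (1.02%) of the other loci. At least 10 points lower were 0 and 2. From 500 to under 2000 tags, 10% were that much higher, against 6.24%. The values were 12.7% against 11.1% from 200 tags and 18.2% against 18.6% from 100 tags. In 111 loci both clusters had at least 30% of the tags in each library, and the share of a single cluster of the pair in either library ranged from 20.4% to 70.4%. The rule on pooled shares largely sets these values, and nothing is read from them.

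The 5′ cluster took a slightly larger share in the symbiotic library in most of the loci. Its share was higher there in 129 loci and lower in 48, or 72.9% higher, against 65.8% of all loci compared. The median difference was 4.00 points, with quartiles of -0.72 and 7.66 points, against 2.23 points over all loci compared. The median 5′ share was 38.4% aposymbiotic and 40.6% symbiotic. Summed over the 177 loci, the 5′ clusters held 39.5% of 314081 aposymbiotic and 45.8% of 601341 symbiotic tags. These sums rest mostly on a few loci, as the 10 strongest held 60.1% of the tags of all 354. In the 177 loci with fewer tags the sums were 36.0% of 4867 and 40.1% of 9448 tags. When every tagged position was counted a single time in each library, in place of its tags, the median difference was 1.25 points. A base adds at most 1 to this count whatever its tags, so strongly tagged clusters can show little difference by it.

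**Figure D1:**
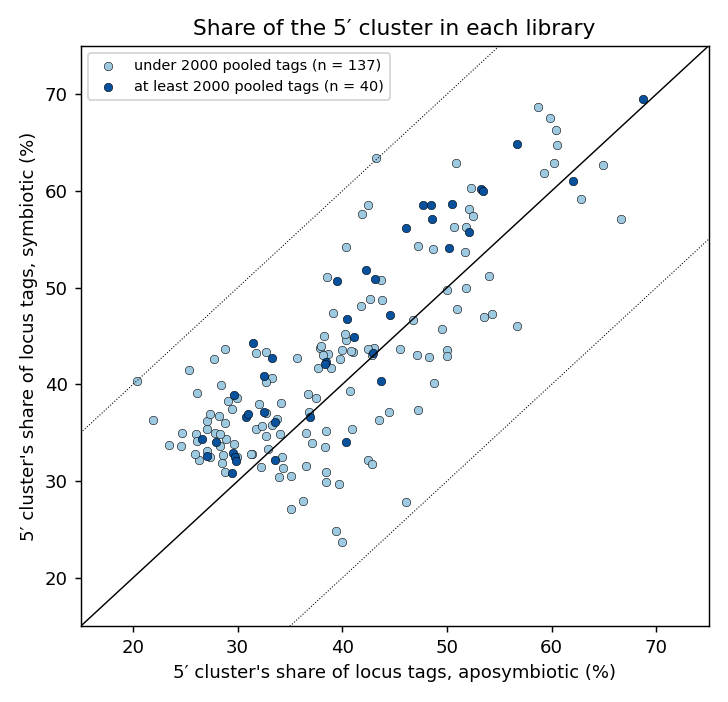
The 5′ cluster's percentage of the locus tags in the aposymbiotic library (x axis) against the symbiotic library (y axis) for the 177 loci with at least 50 tags in each, 1 point per locus, with the 40 loci of at least 2000 pooled tags in dark blue. The solid line marks equal shares and the dotted lines a difference of 20 points: 129 points lie above the solid line, and 2 lie above the upper dotted line.

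Since a share near the middle of its range moves more for the same change than one near its ends, the 5′ to 3′ ratio was also compared. The tags of the 5′ cluster over those of the 3′ cluster, each with 0.5 added, gave a median log2 difference of 0.24 between the libraries. The 1949 loci outside the rule gave 0.22, so on this scale the loci with distant strong clusters stood close to the rest. On the scale of points, the loci outside the rule had a median of 2.03 points. Loci that met the rule except for the distance, with top positions 31 to 198 bases apart, had a median of 2.79 points and a log2 difference of 0.19 (133 loci). Loci with 1 cluster of at least 70% had 1.25 points and 0.29 (397 loci).

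**Figure D2:**
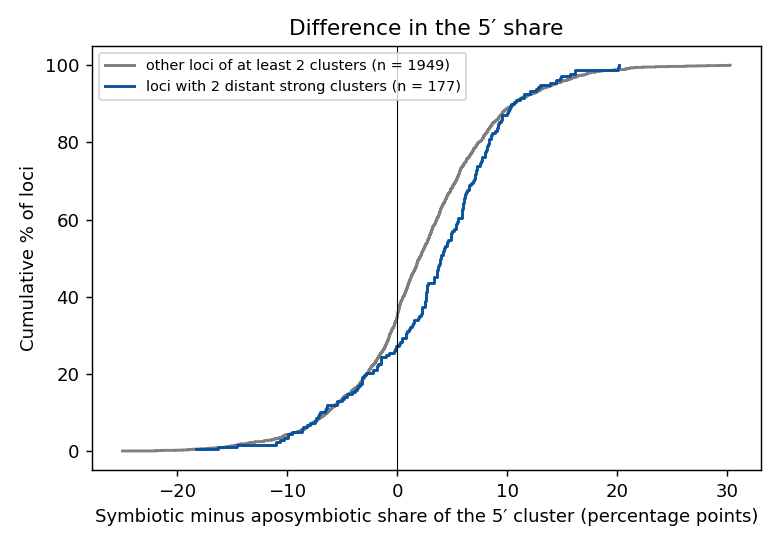
Cumulative percentage of loci (y axis) by the symbiotic minus aposymbiotic share of the 5′ cluster in percentage points (x axis), for the 177 loci with distant strong clusters (blue) and the 1949 other loci of at least 2 clusters (grey). The blue line runs to the right of the grey one around the middle, with medians of 4.00 and 2.03 points, and both meet at the ends.

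The median difference, taken with its sign, was highest in the loci with the most tags, where counting error is small. Without regard to sign, the median was 8.53 points in the class with fewest tags and 5.95 points in that with most. Of the 40 loci with at least 2000 pooled tags, 35 had a higher 5′ share in the symbiotic library (87.5%, against 160 of 197 or 81.2% of the other loci of that size), with a median of 5.71 points and quartiles of 2.61 and 8.24 points. Of the 60 with 500 to under 2000 tags, 51 were higher (85%, against 309 of 417 or 74.1%), with a median of 5.06 points. In the other loci the percentage higher rose with tags too, from 59.2% in the class with fewest tags, but their median in points did not. Their log2 difference of the 5′ to 3′ ratio was 0.16 in the class with fewest tags and 0.31 in that with most. Of the 55 with 200 to under 500 tags, 34 were higher (2.12 points), and of the 22 with 100 to under 200 tags 9 were higher (-2.52 points). The other loci of the same tag classes had medians of 1.90, 2.40, 1.80 and 1.92 points, from the most tags to the fewest. The log2 difference of the 5′ to 3′ ratio in the class with most tags was 0.37 in the loci with distant strong clusters and 0.31 in the others. The tag classes were chosen after the values were seen.

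**Figure D3:**
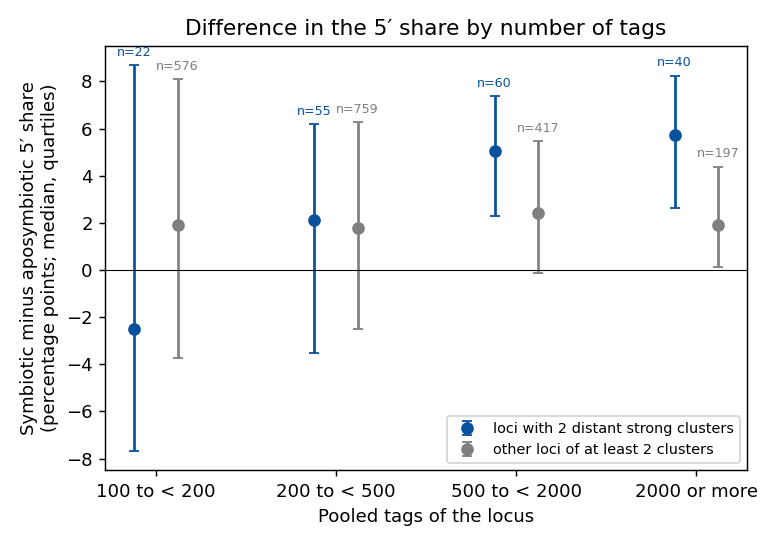
Symbiotic minus aposymbiotic 5′ share in percentage points (y axis) by the pooled tags of the locus (x axis). Points are medians over loci, bars run from the lower to the upper quartile, and the number of loci is printed above each bar: in blue, loci with distant strong clusters, whose medians run from -2.52 points in the class with fewest tags to 5.71 points in that with most.

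By distance the medians ran from 2.01 to 5.01 points. Loci with top positions 200 to under 250 bases apart had a median difference of 2.01 points, with 21 of 38 higher in the symbiotic library. From 250 bases the median was 4.05 points (25 of 30), from 300 bases 4.86 points (34 of 47), from 400 bases 5.01 points (21 of 26) and from 600 bases on 3.74 points (28 of 36). Grouped by the stronger cluster, the median was 3.83 points in the 97 loci led by the 5′ cluster and 4.09 points in the 76 led by the 3′ cluster.

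The other clusters of the locus were grouped by their position relative to the pair. Averaged over the 177 loci, the 5′ cluster held 39.4% (aposymbiotic) and 42.6% (symbiotic) and the 3′ cluster 41.3% and 38.7%. Clusters downstream of the pair held 7.95% and 6.31%, clusters upstream 6.85% and 7.48%, and clusters between 4.48% and 4.84%. The 3′ cluster had a lower share in the symbiotic library in 120 loci, or 67.8%, against 61.5% of all loci compared. The downstream clusters had a lower one in 90 of the 125 loci that had any, or 72%, against 72.3% of all loci compared that had any. The upstream clusters were divided, with a higher share in 70 and a lower one in 57 loci and a median difference of 0.12 points. They were higher in 55.1%, against 62.4% of all loci compared that had any, where the median was 0.93 points. Clusters between the pair had a higher share in 46 and a lower one in 31 loci, with a median of 0.18 points. They were higher in 59.7%, against 54.2% of all loci compared that had any, where the median was 0.19 points.

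The leading cluster was the same in both libraries in 109 of 177 loci, or 61.6%, against 81.5% of all loci compared. The rule limits how uneven a pair can be, and the part of this in the lower value was not tested. The 5′ cluster led in 82 loci of the aposymbiotic and 106 of the symbiotic library. In 43 loci the lead lay with the 3′ cluster in the aposymbiotic and with the 5′ cluster in the symbiotic library, and in 17 it was the other way round. Leads by direction are not given for all loci compared. A higher 5′ share in the symbiotic library was the more frequent direction there too (65.8%), so this imbalance is not read as particular to these loci.

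Levels of the clusters themselves were compared as log2 ratios of CPM + 1, symbiotic over aposymbiotic. The median was 0.18 for the 5′ clusters and -0.03 for the 3′ clusters of the 177 loci, against 0.05 and -0.15 over all loci compared. The 5′ clusters were thus slightly higher and the 3′ clusters nearly level, but with every position counted a single time both medians were below 0 (-0.13 and -0.25). Across the 177 loci, which share both libraries and their depth, Pearson's r of the ratios of the paired clusters was 0.44 and Spearman's rho 0.41, against 0.32 and 0.32 over all loci compared. Both clusters were higher in the symbiotic library in 67 loci and both lower in 42. The clusters went opposite ways in 68, with the 5′ cluster higher in 55 and the 3′ cluster in 13, or 38.4% against 39.0% of all loci compared. By this measure 0 of the 5′ and 0 of the 3′ clusters had a symbiotic level at least 2-fold higher, against 2.54% and 1.22% of all loci compared. At least 2-fold lower were 3 of the 5′ and 4 of the 3′ clusters, against 2.87% and 5.97%.

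**Figure D4:**
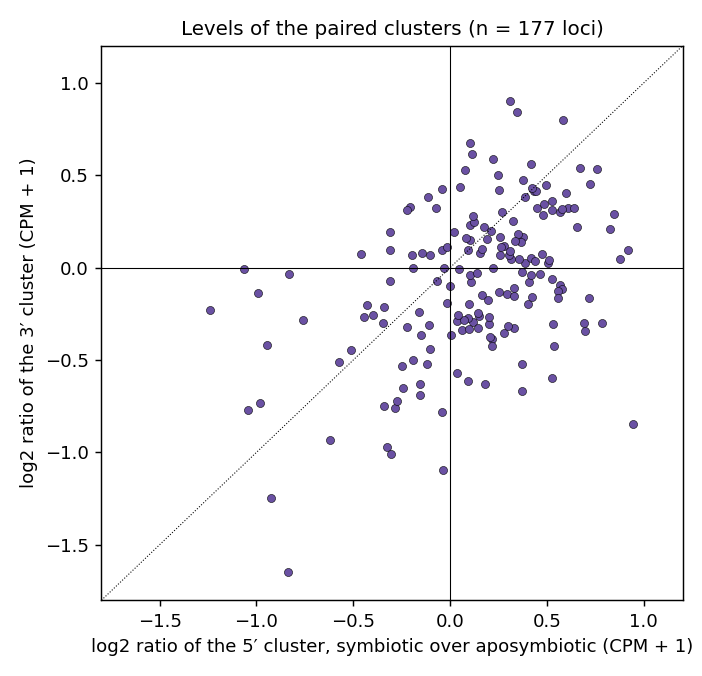
Log2 ratio of CPM + 1, symbiotic over aposymbiotic, of the 5′ cluster (x axis) and of the 3′ cluster (y axis) in 177 loci, 1 point per locus. The dotted line marks equal ratios: 125 points lie below it, where the 5′ ratio exceeds the 3′ ratio, and 55 lie in the part with a higher 5′ and a lower 3′ cluster.

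Inside the clusters the most tagged base was often the same in both libraries, at about the frequency of other loci. With at least 20 tags in each library, the most tagged base was the same in 121 of 171 5′ clusters, or 70.8%, against 63.5% of the 5′ clusters of all loci compared. It was the same in 105 of 165 3′ clusters, or 63.6%, against 63.3%. Both bases were the same in 75 of the 162 loci with 20 tags or more in each cluster and library, or 46.3%, against 43.5%. It was displaced by over 20 bases in 29 of the 5′ and 30 of the 3′ clusters, at most by 149 and 130 bases. The share displaced over all loci compared is not given here, so nothing is read from these counts.

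The strongest locus lay on scaffold_1:32068004-32070073 (plus), with its top positions at 32069045 and 32069759, 714 bases apart. Its 5′ cluster had 12129 aposymbiotic and 27037 symbiotic tags, and its 3′ cluster had 22250 and 32002. The aposymbiotic tags leaned to the 3′ cluster and the symbiotic tags did so less. The 5′ share was 33.3% (32.8 to 33.8) aposymbiotic and 42.7% (42.3 to 43.1) symbiotic, a difference of 9.40 points (8.78 to 10.0). In CPM the 5′ cluster was 1.21-fold higher in the symbiotic library (1.19 to 1.24), and the 3′ cluster stood at 0.78 of its aposymbiotic level (0.77 to 0.80). The output of the whole locus, 17022 CPM aposymbiotic and 16117 CPM symbiotic, differed less than that of either cluster.

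The next locus by tags, on scaffold_11:14060522-14062206 (minus), did not follow this order. Its 5′ cluster had 7268 and 14562 tags and its 3′ cluster 13342 and 29112 tags in the aposymbiotic and symbiotic library. The 5′ share was 33.6% and 32.2%, a difference of -1.44 points (-2.20 to -0.68). Each cluster was a little higher in the symbiotic library, the 5′ one 1.09-fold and the 3′ one 1.19-fold. The top positions lay 308 bases apart, at 14062101 and 14061793.

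On scaffold_14:6342228-6343735 (plus), the 5′ cluster had 5542 and 12817 tags and the 3′ cluster 13174 and 22435. The 3′ cluster led in both libraries, and the 5′ share went from 27.1% aposymbiotic to 32.6% symbiotic (5.51 points, 4.74 to 6.27). On scaffold_3:17257754-17258696 (minus), the tags were 5120 and 12042 at the 5′ and 9306 and 17635 at the 3′ cluster. The share there was 26.6% and 34.3% (7.75 points, 6.95 to 8.54), again with the 3′ cluster ahead in both. The 5′ cluster was 1.28-fold higher in the symbiotic library and the 3′ cluster 1.03-fold.

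Another locus on scaffold_3:11442387-11443465 (plus) was led by its 5′ cluster in both libraries. It had 10946 and 28303 tags there against 4942 and 12357 at the 3′ cluster, 651 bases away. The shares of 68.7% and 69.5% differed by 0.76 points (-0.08 to 1.61), within counting error, although the locus as a whole was 1.39-fold higher in the symbiotic library. Both clusters were higher by similar amounts, 1.41-fold and 1.36-fold. On scaffold_12:14659110-14661889 (plus), the 5′ cluster had 9068 and 20740 tags and the 3′ cluster 5524 and 10486. The 5′ cluster led with 53.5% and 60.0% of the tags (6.50 points, 5.59 to 7.41).

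A pair of the strongest loci lay side by side on scaffold_1 and pointed away from each other, with 2231 bases between them. The locus at 13711031-13713686 (minus) had 6088 and 14479 tags in its 5′ and 6890 and 12432 in its 3′ cluster. Its 3′ cluster led in the aposymbiotic and its 5′ cluster in the symbiotic library, with 5′ shares of 43.1% and 50.9% (7.73 points, 6.73 to 8.73). The locus at 13715918-13718101 (plus) had 6616 and 17253 tags in its 5′ and 5363 and 10039 in its 3′ cluster. Its 5′ share was 48.5% and 58.6% (10.1 points, 9.11 to 11.1), and its 5′ cluster was 1.42-fold higher in the symbiotic library while its 3′ cluster stood at 1.02-fold (0.99 to 1.05). In these 8 strongest loci the 5′ cluster was higher in the symbiotic library in all, with CPM ratios from 1.09 to 1.42, and 3 of the 3′ clusters were lower. With every position counted a single time the share difference was -0.70 points on scaffold_14, -1.23 points on scaffold_12 and -0.29 points at the plus-strand locus of the pair on scaffold_1, so in these 3 its direction turned. In the order described, the other 5 then stood at 0.72, -1.47, 4.29, 2.23 and 2.24 points, and the first of these is the strongest locus, with 9.40 points by tags. The 5′ cluster of that locus had 12129 aposymbiotic and 27037 symbiotic tags on 167 bases, far more tags than bases to count. No conclusion on the differences by tags is drawn from single positions in loci this strong.

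**Figure D5:**
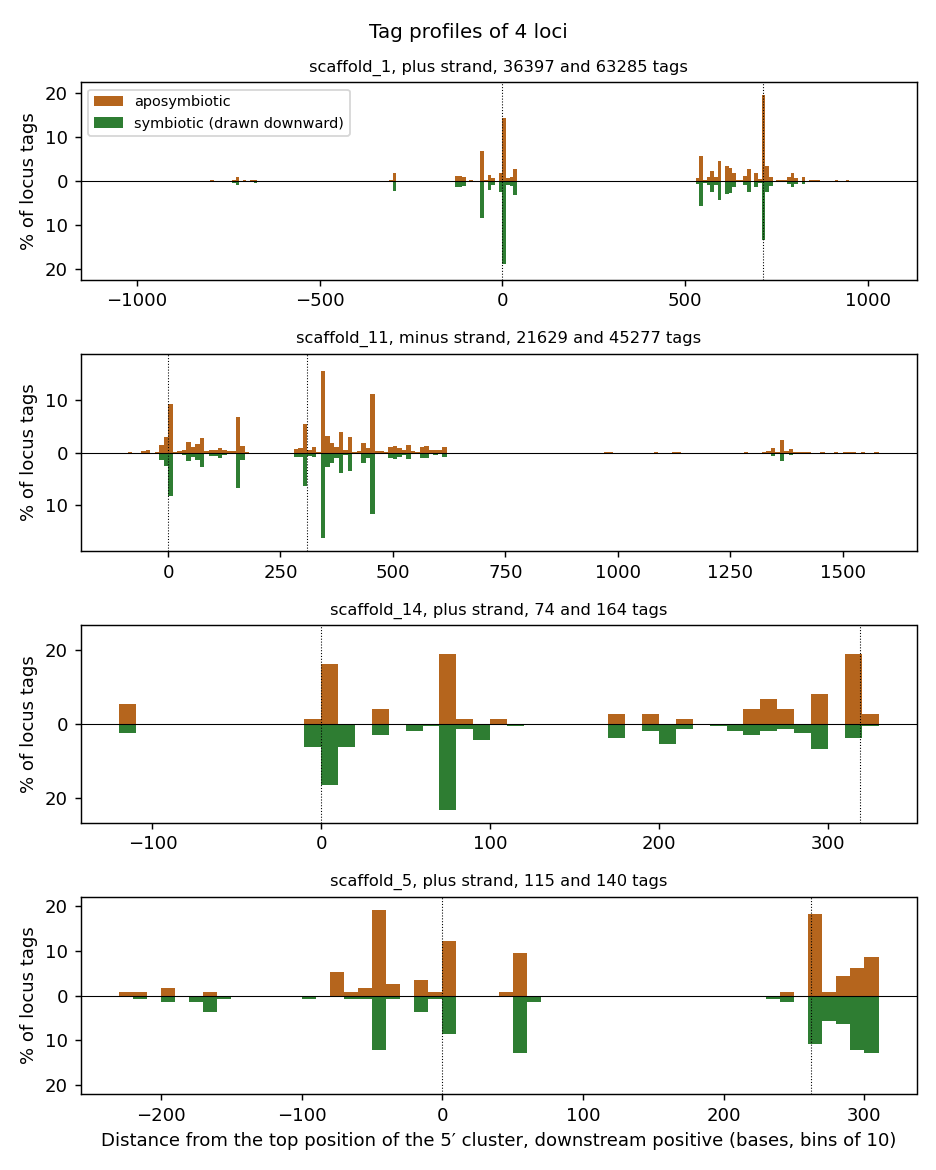
Tags along 4 loci as a percentage of the locus tags of each library (y axis) in bins of 10 bases, by distance in bases from the pooled top position of the 5′ cluster (x axis), with the aposymbiotic library drawn upward and the symbiotic library downward. From top to bottom are the pair with most tags, on scaffold_1 and scaffold_11, the locus with the largest positive difference, on scaffold_14, and that with the largest negative one, on scaffold_5. Dotted lines mark the pooled top positions of both clusters, 714, 308, 319 and 262 bases apart, and tags of both libraries fall on the same peaks in the first 2 panels.

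The largest differences in favour of the 5′ cluster in the symbiotic library came from loci of moderate depth. On scaffold_14:7307465-7307904 (plus), the 5′ cluster had 32 aposymbiotic and 104 symbiotic tags and the 3′ cluster had 38 and 56. The 3′ cluster led in the aposymbiotic and the 5′ cluster in the symbiotic library, with 5′ shares of 43.2% (31.8 to 55.3) and 63.4% (55.6 to 70.8), 20.2 points apart (6.52 to 32.9). On scaffold_6:18472116-18472949 (plus), the 5′ cluster had 34 and 124 tags and the 3′ cluster had 75 in both libraries. The shares were 20.4% (14.5 to 27.3) and 40.4% (34.9 to 46.1), 20.03 points apart (11.4 to 27.8). In CPM its 5′ cluster was 1.99-fold higher in the symbiotic library (1.35 to 2.99) and its 3′ cluster stood at 0.54 (0.39 to 0.76), so the clusters differed in opposite directions. These are the 2 loci past 20 points, and neither stands far from that line. Counting every position a single time, they stood at 2.98 and 9.86 points.

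The next loci in this order differed by 14.4 to 16.2 points. On scaffold_1:4752698-4753771 (minus), the 5′ cluster had 132 and 396 tags and the 3′ cluster 150 and 216. Its 5′ share was 42.4% aposymbiotic and 58.6% symbiotic (16.1 points, 9.44 to 22.6), and the most tagged base of each cluster was the same in both libraries. On scaffold_5:6062577-6063445 (plus), the tags were 127 and 265 at the 5′ and 137 and 161 at the 3′ cluster (41.9% and 57.6%, 15.7 points, 8.45 to 22.7). There the 3′ cluster stood at 0.64 (0.51 to 0.81) and the 5′ cluster at 1.14 (0.92 to 1.41) of the aposymbiotic level, so the 3′ cluster differed more than the 5′ cluster. With every position counted a single time the differences of these 2 loci were 4.02 and 1.80 points.

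The remaining 4 were on scaffold_6:5609450-5611650, scaffold_13:5312552-5314104, scaffold_2:5868871-5869496 and scaffold_14:5028266-5029463, all on the minus strand. Their 5′ clusters had 35, 45, 47 and 16 aposymbiotic and 98, 136, 113 and 44 symbiotic tags, in that order. Their differences were 16.2, 14.9, 14.8 and 14.4 points. The interval of the last reached down to 1.02 points. The 4 differences became 10.7, 10.5, 4.10 and 4.67 points with every position counted a single time. In all 8 loci of this group the 5′ cluster was higher and the 3′ cluster lower in the symbiotic library by CPM + 1, which follows in part from the way they were ranked.

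The largest differences in the other direction were smaller and rested on fewer tags. On scaffold_5:9680133-9680662 (plus), the 5′ cluster had 53 aposymbiotic and 39 symbiotic tags and the 3′ cluster 45 and 70. The 5′ share was 46.1% (36.7 to 55.6) and 27.9% (20.6 to 36.1), a difference of -18.2 points (-29.6 to -6.35). Its 5′ cluster stood at 0.40 (0.26 to 0.62) of the aposymbiotic level and its 3′ cluster at 0.85 (0.57 to 1.26), so the 5′ cluster was the further below. With every position counted a single time the difference was -11.1 points. A second locus that met the rule began 1015 bases further on, at 9681678-9683060 on the same strand, just past the limit for joining. It also had a lower 5′ share in the symbiotic library, with 409 and 695 of 1013 and 2042 tags (40.4% and 34.0%, -6.34 points, -10.002 to -2.70).

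On scaffold_4:12536405-12537013 (minus), the 5′ cluster had 24 and 19 tags and the 3′ cluster 23 and 42, and the difference was -16.2 points (-31.2 to -0.80). On scaffold_2:23017930-23018688 (minus), the tags were 39 and 34 at the 5′ and 35 and 58 at the 3′ cluster (-14.6 points, -26.4 to -2.59). Both loci had a nearly even pair in the aposymbiotic library and a 3′ lead in the symbiotic one. The other 5 loci of this group, on scaffold_11:10894120-10894603 and at 10904789-10905115, scaffold_13:5397480-5398129, scaffold_1:35787049-35788091 and scaffold_14:1558427-1558872, had differences from -11.0 to -9.90 points. The intervals of all 5 included 0. With every position counted a single time 3 of them turned direction, scaffold_13 (1.41 points), scaffold_1 (8.81 points) and scaffold_14 (5.52 points), and the locus on scaffold_4 stood at -0.16 points. In these 8 loci the 5′ cluster was lower in the symbiotic library, which follows in part from the way they were ranked. In 7 the 3′ cluster was lower too, but by less. The 3′ ratios of those 7 ran from 0.71 to 0.99. The interval of each included equal levels, so these 3′ clusters differed by no more than counting error. The same held for the 5′ clusters at 10904789-10905115 (0.71, 0.41 to 1.24) and on scaffold_14 (0.85, 0.49 to 1.51).

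Among the 40 loci with at least 2000 tags, 5 went against the direction of the rest. Besides the neighbour on scaffold_5 and the second strongest locus, both described above, they were on scaffold_11:12875324-12876567 (-3.41 points, -7.66 to 0.81), scaffold_7:7014874-7015812 (-0.97 points, -3.91 to 1.98) and scaffold_10:12448647-12449741 (-0.30 points, -2.64 to 2.03). They were named after their values were seen. The last 3 differed by no more than counting error.

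The widest pairs lay 1618 to 1993 bases apart. The widest, on scaffold_3:12377256-12379328 (minus), had only 12 aposymbiotic and 43 symbiotic tags. On scaffold_6:14761203-14763360 (plus), with top positions 1782 bases apart, the 5′ cluster had 176 and 315 tags and the 3′ cluster 311 and 265. The lead was with the 3′ cluster in the former and the 5′ cluster in the latter library. The 5′ cluster was level between the libraries in CPM (0.97-fold, 0.81 to 1.18), while the 3′ cluster stood at 0.46 of its aposymbiotic level (0.39 to 0.55). On scaffold_9:1668707-1670394 (minus), the tags were 21 and 51 at the 5′ and 22 and 24 at the 3′ cluster, 1618 bases away (13.9 points, -2.99 to 29.5). The closest pairs, at 200 to 201 bases, were the minus-strand locus of the divergent pair on scaffold_1, a locus on scaffold_12:4989331-4991017 (-4.55 points, -16.8 to 7.37) and one on scaffold_6:16543807-16544695 (-11.3 points, -27.6 to 4.96), both on the minus strand. The locus on scaffold_6:16543807-16544695 had 49 aposymbiotic tags and so was not among the 177 loci compared.

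A single locus had 3 clusters of at least 30%, on scaffold_1:28860658-28861347 (minus), with 21 aposymbiotic and 33 symbiotic tags in all.

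The level of whole loci was compared over all 354, by a ratio of at least 2 on the scale of CPM + 1. By this rule 4 loci were higher in the symbiotic library, against 1.88% of all loci with at least 50 pooled tags, and 8 were lower, against 2.11%. These are 1.13% and 2.26% of the loci with distant strong clusters, close to the background. The median log2 ratio was 0.07, against -0.002 over all loci. The 4 higher loci had 9 to 14 aposymbiotic and 44 to 63 symbiotic tags. Only 2 of the 12 had at least 50 tags in each library, and they were named after their values were seen. On scaffold_4:3307705-3308718 (minus), a locus had 122 and 88 tags, 2.55-fold lower in the symbiotic library (1.92 to 3.39). Its 5′ cluster had 36 and 33 tags and its 3′ cluster 61 and 45. On scaffold_13:1452329-1453639 (plus), a locus had 96 and 69 tags, 2.56-fold lower (1.86 to 3.53), with 26 and 25 tags at the 5′ and 37 and 19 at the 3′ cluster. In both the 3′ cluster was further below its aposymbiotic level than the 5′ cluster, but the intervals of their share differences included 0.

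Neighbouring loci of this kind were found 14 times with at most 5000 bases between them, on either strand. In 10 of these both loci had 50 tags or more in both libraries. Of the 10, both loci had a higher 5′ share in the symbiotic library in 6, both a lower one in 1, and 3 were divided. Among single loci 72.9% had a higher one, which is not a rate for pairs, and whether neighbours go together was not tested. An example is scaffold_1:4297527-4298595 and 4300245-4301313 (both minus), with differences of 5.96 and 4.23 points. The former also pairs with the locus at 4294259-4294552 (plus, 3.59 points), so the 10 pairs share loci.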

How the data were processed

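Raw counts were deposited by the authors for both libraries, as the number of 5′ tags per base and strand with no normalization, together with cluster lists that give raw tag counts of at least 5. STAR 2.7.11b and fastp 1.1.0 are named in the submitters' processing notes. Which genome build and counter were used, and whether duplicate reads were removed, is not given in the sources used here. Per the labels' protocols, capped ends were marked by a ligated dinucleotide and random primers started the reverse transcription.

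Clusters, loci and pairs were built from the pooled single-base counts by the rule in the text, with ties for the top position given to the most 5′ base. Positions are counted from 1. CPM used all tags of a library. The cluster lists served only to check presence. The members and the quantities described were chosen with earlier results of these data known. The loci named are the 8 with most tags, the 8 with the largest difference in each direction, and the 3 with the greatest and the least distance. Loci named outside these groups were chosen after their values were seen. The planned work on sequence needed a genome and was not run. The calculations were tested on simulated data. Alternatives covered the joining distances, minimum tags, shares, depth, single positions and scaling (TMM, edgeR 4.0.16 in R 4.3.3). The tools were pandas 2.3.3, scipy 1.17.1, numpy 2.4.6 and matplotlib 3.10.9 under Python 3.11.15.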

Additional observations from a re-analysis of the deposited data

Results flagged for a closer look

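Tags on the strand opposite to the locus were used in no comparison. Within the spans of the 354 loci there were 11 such tags in the aposymbiotic (Poisson interval 5.49 to 19.7) and 20 in the symbiotic library (12.2 to 30.9), spread over 18 loci. They lie above the 3 tags that a count of 0 allows, which shows only that such tags were present. No rate of stray tags was available to set beside them. They equal 0.00345% and 0.00327% of the tags in the loci's own clusters.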

How the results depend on the processing

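The median difference in the 5′ share stayed above 0 in all 15 alternatives tried, from 3.14 to 5.25 points in 14 of them and 1.25 points with every position counted a single time. The counts past 20 points are small and changed easily (higher, lower): 22 and 6 at 10 points, 0 and 0 at 30 points, 14 and 3 from 20 tags in each library, 1 and 0 from 100 tags, 1 and 0 with positions joined over 10 bases, 8 and 1 over 50 bases, 5 and 1 with clusters joined over 500 bases, 1 and 0 over 2000 bases, 0 and 0 with top positions at least 500 bases apart, 12 and 0 with clusters of at least 20% each, 0 and 0 with 40% each, 1 and 0 at equal depth, 2 and 1 with every position counted a single time, and 1 and 2 without the top positions.

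The same cluster led in 52.9% of loci from 20 tags, 81.5% with positions joined over 10 bases, 52.3% from 500 bases apart, 70.8% and 36.7% with clusters of at least 20% and 40% each, 78.0% with every position counted a single time and 68.9% without the top positions. The median log2 ratio of the 5′ cluster was 0.10 with positions joined over 50 bases and 0.10 with clusters of at least 20% each. With every position counted a single time it was -0.13, and that of the 3′ cluster was -0.25. TMM factors moved no call. Loci past 2-fold (higher, lower) numbered 7 and 9 with 0.5 CPM added, 1 and 3 with 5 CPM, 0 and 2 from 100 pooled tags, 62 and 36 from 20 pooled tags, 0 and 0 at 4-fold and 32 and 25 at 1.5-fold.

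Chosen after the data were seen, a minimum of 500 pooled tags gave 0 and 0 loci past 20 points and the same lead in 70%, and at least 50 tags in each library left 0 and 2 loci past 2-fold. Of the 29 named loci, 6 had the opposite sign and 15 left the counting interval of their difference with every position counted a single time. At equal depth, within the pair or without the top positions 0 had the opposite sign. Within the pair 7 left the counting interval, without the top positions 1 did, and at equal depth 0 did. Loci with few tags are limited by depth. No paired analysis was possible because aposymbiotic and symbiotic animals each gave 1 library, which also means that none could be dropped. Unless the construction shows it, the cause was not tested.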
